A study of Mus musculus with 12 samples.

Results

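The Serpina genes encode a clade of serum protease inhibitors that is expressed mainly in the liver. The 10 genes described here are *Serpina1a*, *Serpina1b*, *Serpina1c*, *Serpina1d*, *Serpina1e*, *Serpina3k*, *Serpina6*, *Serpina7*, *Serpina12* and *Serpina4-ps1*, and they were chosen by name. The levels of these genes in control and ND-fed mice were in view when they were chosen, so that the values of that contrast are given below as a description, with no test. Earlier results from all 4 groups were known as well. They are 10 of the 54532 genes of the table and 10 of its 29 Serpina genes.

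Livers of 12 male C57BL/6J mice, 3 in each of 4 groups, were used for RNA sequencing. From 5 weeks of age and for 26 weeks, ND-fed mice received the normal diet CE-2 and control mice the high-fat diet HFD32, and HYA-treated and LA-treated mice received the same high-fat diet with 1% HYA or 1% LA added. HYA is a hydroxy fatty acid that lactic acid bacteria of the gut form from linoleic acid (LA) by adding water to 1 of its double bonds, so that this pair of compounds was compared at the same dose and time. Values are FPKM, that is, fragments divided by the length of the gene in kilobases and by a scale for the library, and 17169064 to 25220880 fragments per mouse fell on genes.

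Serpins trap a protease by offering it a loop that the enzyme cleaves, after which inhibitor and enzyme stay bound to each other. The products of the *Serpina1* genes are the mouse forms of α1-antitrypsin, the main plasma inhibitor of neutrophil elastase, which mice carry as several close copies where humans have a lone gene. Some relatives have lost the inhibitory function and carry hormones in plasma, such as corticosteroid-binding globulin (*Serpina6*) and thyroxine-binding globulin (*Serpina7*).

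Of the 10 genes, 9 lie within a stretch of 800 kb on chromosome 12 that holds 28 Serpina genes (GRCm38, chr12:103614786-104414329), and *Serpina7* lies on the X chromosome (chrX:139079257-139085236). The 5 *Serpina1* genes are neighbours on the minus strand, and their start regions are nearly identical. RefSeq promoters of the build GRCm38.p6 were available for 7 of the 10 genes, and the 5 of *Serpina1* are shown for the 125 bases around a shared HNF1 motif because these genes differed widely in how far they varied between diets. They run from 5′ to 3′ on the minus strand, at chr12:103863576-103863700 for *Serpina1a*, chr12:103738151-103738275 for *Serpina1b*, chr12:103904913-103905037 for *Serpina1c*, chr12:103773585-103773709 for *Serpina1d* and chr12:103956911-103957035 for *Serpina1e*, and capitals mark the letters GTTAAT, part of the sequence that the hepatocyte factor HNF1 binds.

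Serpina1a: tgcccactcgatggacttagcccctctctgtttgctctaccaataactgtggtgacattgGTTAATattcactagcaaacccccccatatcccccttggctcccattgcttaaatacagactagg
Serpina1b: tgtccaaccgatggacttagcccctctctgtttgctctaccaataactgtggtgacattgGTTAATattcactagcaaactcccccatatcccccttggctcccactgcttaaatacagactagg
Serpina1c: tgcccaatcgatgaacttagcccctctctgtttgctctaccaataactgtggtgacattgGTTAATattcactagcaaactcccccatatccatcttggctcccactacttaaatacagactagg
Serpina1d: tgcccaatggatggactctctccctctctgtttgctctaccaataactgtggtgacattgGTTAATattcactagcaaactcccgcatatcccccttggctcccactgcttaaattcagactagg
Serpina1e: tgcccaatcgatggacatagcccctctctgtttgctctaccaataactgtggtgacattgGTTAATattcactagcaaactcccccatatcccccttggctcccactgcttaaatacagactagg

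The letters GTTAAT begin 21 bases before the RefSeq start of *Serpina1a*, 26 before that of *Serpina1b*, 27 before that of *Serpina1c*, 16 before that of *Serpina1d* and 78 before that of *Serpina1e*. These distances hold for the RefSeq starts only. By the gene spans of the table, given below, the stretches of *Serpina1b* and *Serpina1e* lie inside their genes, that of *Serpina1d* spans the start of its gene, and those of *Serpina1a* and *Serpina1c* lie upstream of theirs. Counted from 1 at the 5′ end, with the base of *Serpina1e* first, *Serpina1b* differed from *Serpina1e* at 3 positions (C3T, T8C and A17T), *Serpina1a* at 4 (A7C, A17T, T81C and C106T), *Serpina1c* at 5 (G14A, A17T, C93A, C94T and G108A) and *Serpina1d* at 8. The substitution A17T was found against each of the other 4 genes, so that *Serpina1e* alone among the 5 carried this base. In windows of 300 bases, GTTAAT on either strand was found in 6 of the 7 available promoters (*Serpina1a* to *Serpina1e* and *Serpina7*) and in 7.20% of the 27025 promoters of the genome. The C/EBP letters TTGCNNAA were found in 6 of 7 (all but *Serpina1c*) and in 10.8% of promoters, and the STAT letters TTCNNNGAA in 0 of 7 and in 8.47% of promoters. These are matches of letters only. The 5 *Serpina1* promoters are near-identical copies around this motif and not independent matches, so that these counts do not test an enrichment.

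How far fragments can be told apart differs among the genes. Over their longest coding transcripts the *Serpina1* genes were 90.7% to 97.3% identical in pairs. Of all stretches of 150 bases, the read length, those also found in a transcript of another gene made up 50.5% for *Serpina1c*, 40.7% for *Serpina1a*, 23.3% for *Serpina1d*, 16.4% for *Serpina1b* and 7.57% for *Serpina1e*. The division of fragments among the 5 genes is therefore uncertain. For *Serpina1e* this weighs most in mice on a high-fat diet, where it was at 17.7 to 106 FPKM and *Serpina1b*, with which it shares those stretches, at 1350 to 1942 FPKM, so that a small part of the *Serpina1b* fragments assigned to *Serpina1e* would be large beside its own level. For *Serpina3k* the share was 0.262%, in common with *Serpina3m*, and for *Serpina6*, *Serpina7*, *Serpina12* and *Serpina4-ps1* it was 0. The annotated span of *Serpina1b* also encloses *Serpina1d* and *Gm8893* on the same strand, *Serpina3k* and *Serpina3m* begin at the same position, and *Serpina1c* overlaps *B430119L08Rik* (12.2 FPKM on average) on the opposite strand, which further limits the values of these genes.

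Marker genes were read to describe the tissue. Of 11 hepatocyte markers, 10 were in the table, and *Alb* was the most abundant with a mean of 23934 FPKM. A whole liver holds several cell types, and fewer cells of a type and less RNA per cell cannot be told apart in such samples. The summed level of the hepatocyte markers was 44162.5, 42706 and 44699 FPKM in ND-fed mice, 28669, 32231 and 32303.5 FPKM in control mice, 36686, 37646 and 37221 FPKM in HYA-treated mice and 31976, 32136 and 31408 FPKM in LA-treated mice. It was thus higher in HYA-treated than in control or LA-treated mice, with ranges that did not overlap. Its part in the differences given below was not tested, and 0 of the 10 markers had an adjusted p below 0.05 in any of the 3 comparisons among high-fat diets (limma with Benjamini-Hochberg), against unadjusted p below 0.05 for 6, 8 and 0 of them in HYA against LA, HYA against control and LA against control. Of the 11083 genes that averaged 1 FPKM or more, 54, 310 and 0 had an adjusted p below 0.05 in the same order (limma with Benjamini-Hochberg). An unadjusted p below 0.05 was found for 1908, 2055 and 294 of these genes (limma).

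**Figure D1:**
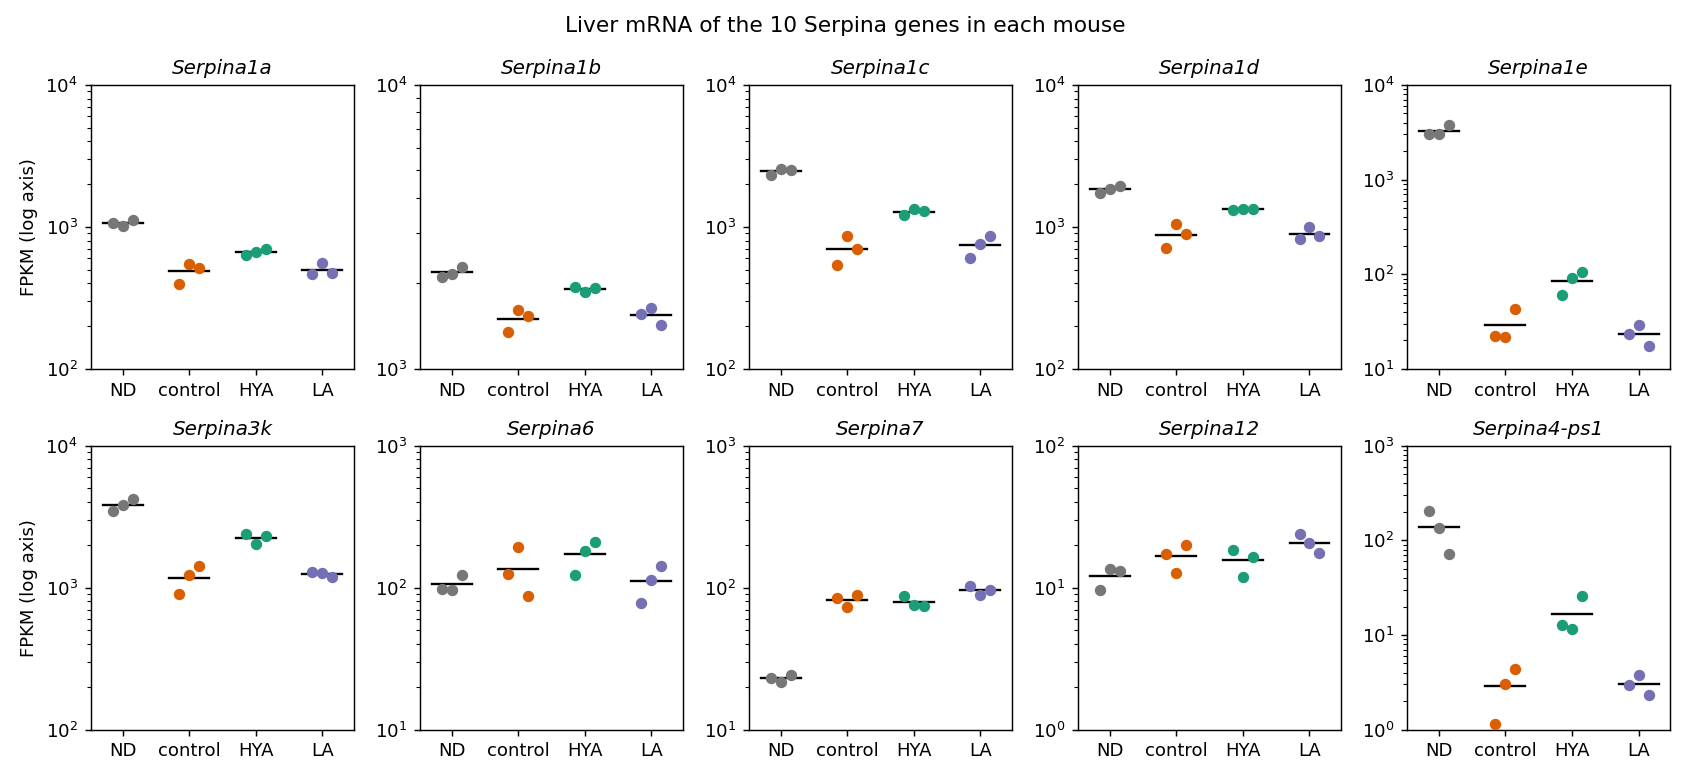
FPKM (log axis) of the 10 Serpina genes in each mouse, with 1 point per mouse and a line at the mean of each group of 3. *Serpina1e* was at 3007 to 3759.6 FPKM in the 3 ND-fed mice and between 17.7 and 106 FPKM in the 9 mice on a high-fat diet, and *Serpina7* was lower in each ND-fed mouse than in each mouse on a high-fat diet.

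In ND-fed mice, *Serpina3k* was the most abundant of the 10 genes (3820 ± 375 FPKM, mean ± SD, n = 3) and the 13th most abundant of all genes. It was followed by *Serpina1e* (3274 ± 421), *Serpina1c* (2460 ± 122), *Serpina1b* (2187 ± 89.9), *Serpina1d* (1842 ± 113) and *Serpina1a* (1065 ± 50.6), and at lower levels by *Serpina4-ps1* (138 ± 67.0), *Serpina6* (105 ± 14.3), *Serpina7* (23.0 ± 1.31) and *Serpina12* (12.1 ± 2.13). The ranges of *Serpina3k* and *Serpina1e* overlapped, as did those of *Serpina4-ps1* and *Serpina6*. In control mice the order was *Serpina1b* (1501 ± 136 FPKM), *Serpina3k* (1179 ± 263), *Serpina1d* (881 ± 167), *Serpina1c* (699 ± 158), *Serpina1a* (487 ± 77.2), *Serpina6* (135 ± 54.1), *Serpina7* (82.1 ± 8.58), *Serpina1e* (29.0 ± 12.1), *Serpina12* (16.6 ± 3.63) and *Serpina4-ps1* (2.88 ± 1.64). The ranges of neighbours in this order overlapped from *Serpina1b* through to *Serpina1a*, and for *Serpina6* and *Serpina7*. *Serpina1e* thus moved from rank 17 to rank 1444 among all genes, and *Serpina4-ps1* from rank 342 to rank 7793.

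As a description of the contrast that was in view, 7 of the 10 genes were lower in each control mouse than in each ND-fed mouse (25.7% of the 11083 genes tested were lower in this way) and 1, *Serpina7*, was higher in each (19.9% of genes tested). Beside *Serpina1e* and *Serpina4-ps1*, whose means in control mice were 0.886% and 2.08% of the ND mean, the log2 differences of control against ND-fed mice on the scale of FPKM + 1 were −1.84 for *Serpina1c*, −1.72 for *Serpina3k*, −1.14 for *Serpina1a*, −1.08 for *Serpina1d* and −0.55 for *Serpina1b*, with 1.79 for *Serpina7*. The ranges of *Serpina6* and *Serpina12* overlapped.

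To ask whether HYA and its parent fatty acid differed in their effect on these genes, HYA-treated mice were compared with LA-treated mice, a pair of groups that shares no mouse with the contrast in view. Since earlier results from these groups were also known, the tests of this comparison are not free of the choice of genes. Their pooled spread and the filter on low values also drew on the ND-fed and control mice, since the fit covered all 12 mice. *Serpina1e*, the copy of α1-antitrypsin whose levels varied most, was 3.50-fold higher with HYA, and *Serpina3k*, which encodes the inhibitor contrapsin, was 1.80-fold higher. Values of 1 FPKM were added before the log2 was taken, and the 11083 genes that averaged 1 FPKM or more across the 12 mice were tested with limma, with p adjusted by Benjamini-Hochberg. With an adjusted p below 0.05 and an absolute log2 difference above 1, 1 of 10 genes was called, *Serpina1e*, and was higher (0.0271% of the 11083 genes tested were called higher). By adjusted p alone, 2 of 10 were higher, *Serpina1e* and *Serpina3k* (0.235% of genes tested). In 7 of 10 genes each HYA-treated mouse was above each LA-treated mouse (14.8% of genes tested). These 7 were the 5 *Serpina1* genes, *Serpina3k* and *Serpina4-ps1*. The 5 are near-identical copies that may share fragments, so that the counts and the median of the 10 genes do not rest on independent genes. In 1 of 10, *Serpina7*, each HYA-treated mouse was below each LA-treated mouse (10.4% of genes tested). The median log2 difference of the 10 genes was 0.60, that of all genes tested 0.01. Across all genes, both thresholds called 3 higher and 9 lower, and adjusted p alone 26 higher and 28 lower. On the scale of TPM (FPKM rescaled), where each library has the same total, the median of all genes moved by −0.109 and these splits became 5 and 22, and 31 and 134 (limma with Benjamini-Hochberg).

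HYA-treated mice were next compared with control mice, which asks what HYA adds to a high-fat diet. This comparison shares the control mice with the contrast in view, and those mice were low in 7 of the genes, which by itself favours higher values with HYA. Its values are therefore given for the 10 genes as a description, and its counts support nothing about them. On the scale of FPKM + 1, *Serpina1e* and *Serpina4-ps1* were 2.94-fold and 4.61-fold higher with HYA. Counted in this way only, 2 of 10 genes were beyond both thresholds and higher (0.162% of genes tested) and 6 of 10 beyond that of adjusted p alone (1.57% of genes tested). The ranges did not overlap in 7 of 10, which were higher (12.7% of genes tested). The median of the 10 genes was 0.54, that of all genes tested 0.02. Across all genes, both thresholds called 18 higher and 16 lower, and adjusted p alone 174 and 136. On the scale of TPM the median of all genes moved by −0.114 and the splits were 18 and 33, and 97 and 400 (limma with Benjamini-Hochberg). In a fit of only the HYA-treated and control mice 0 of 11083 genes passed, with an unadjusted p below 0.05 for 1723, and 0 genes passed without HYA-treated mouse 2, with an unadjusted p below 0.05 for 1473 (limma with Benjamini-Hochberg).

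LA-treated and control mice are described in the same way, since the control mice are again those of the contrast in view. The log2 differences of the 10 genes lay between −0.25 for *Serpina1e* and 0.31 for *Serpina12*, with 0.11 for *Serpina3k*, 0.13 for *Serpina4-ps1* and 0.22 for *Serpina7*, and the ranges overlapped in each of the 10. Of all genes tested, only 3.94% were higher and 3.61% lower with ranges that did not overlap. Over all genes tested, 0% had an adjusted p below 0.05 (limma with Benjamini-Hochberg, 294 genes with an unadjusted p below 0.05, and 0 genes by voom on recovered fragments).

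**Figure D2:**
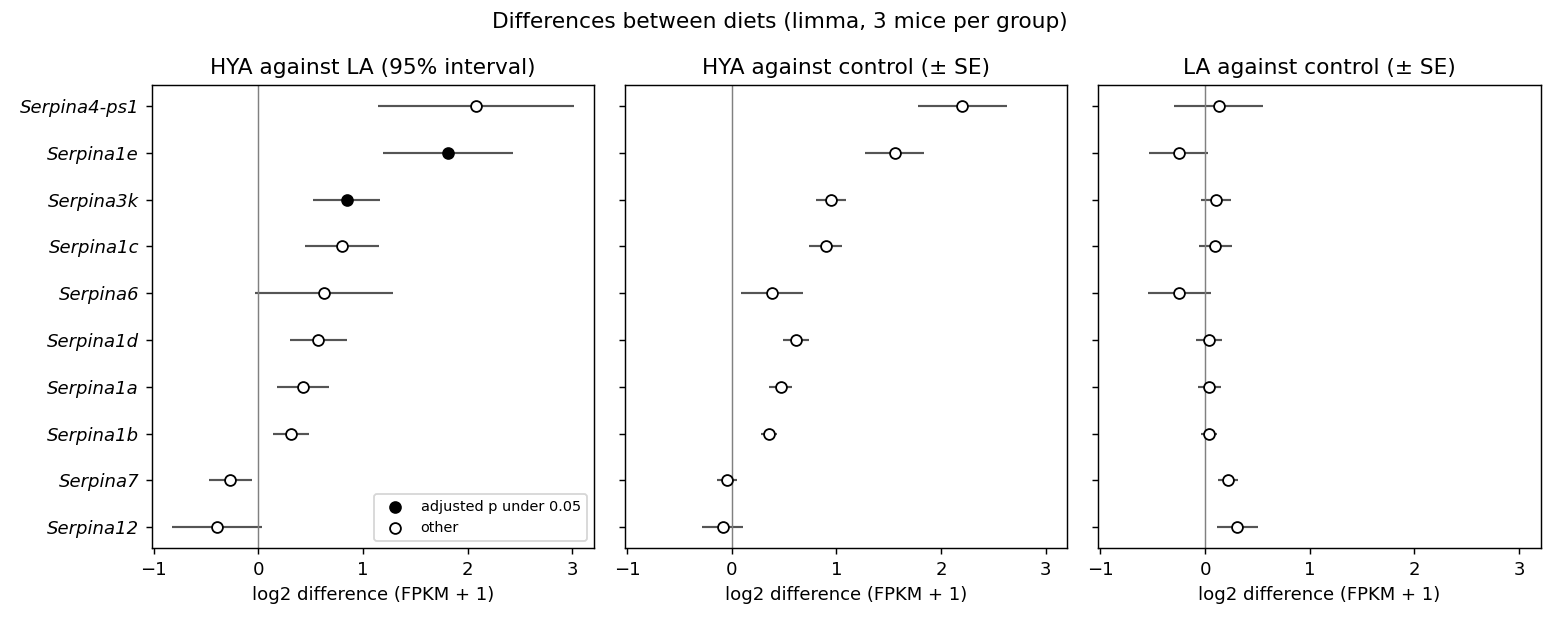
Log2 differences on the scale of FPKM + 1 for the 10 Serpina genes in 3 comparisons, from limma over 3 mice per group, with 95% intervals in HYA against LA and ± SE in the 2 comparisons with control mice; filled points in HYA against LA have an adjusted p below 0.05 (Benjamini-Hochberg over 11083 genes), and points of the 2 comparisons with control mice are open. There are 2 filled points, *Serpina1e* and *Serpina3k*.

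*Serpina1e* (ENSMUSG00000072849, chr12:103946931-103958975), a close copy of α1-antitrypsin, was measured at 3057, 3007 and 3759.6 FPKM in the ND-fed mice and at 22.5, 21.5 and 43.0 FPKM in the control mice. In HYA-treated mice it was at 59.7, 91.0 and 106 FPKM and in LA-treated mice at 23.4, 29.4 and 17.7 FPKM. The HYA-treated mice were above the 6 other mice on a high-fat diet and far below the ND-fed mice, and the control and LA-treated mice overlapped. The HYA mean was 2.61% of the ND mean, against 0.886% for control and 0.718% for LA-treated mice. HYA against LA gave a log2 difference of 1.81 (SE 0.28, adjusted p = 0.0350, limma with Benjamini-Hochberg), and the difference of HYA against control was 1.56. The value of HYA against LA stayed between 1.63 and 2.04 when any 1 mouse was left out, but its adjusted p (limma with Benjamini-Hochberg) exceeded 0.05 with no filter on low values (0.0855), without HYA-treated mouse 2 (0.163) or 3 (0.102), without LA-treated mouse 1 (0.179), 2 (0.0799) or 3 (0.0779), and without ND-fed mouse 1 (0.0527), 2 (0.0642) or 3 (0.0535).

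In the other 4 *Serpina1* genes the HYA-treated mice likewise stood between the ND-fed mice and the other mice on a high-fat diet, over a smaller span. *Serpina1c* (ENSMUSG00000079015, chr12:103894926-103904887) was at 2323, 2556 and 2501 FPKM in ND-fed, 541, 858 and 698 FPKM in control mice, 1215, 1345 and 1288 FPKM with HYA and 606, 758 and 868 FPKM with LA. Each HYA-treated mouse was above each control and LA-treated mouse and below each ND-fed mouse. HYA against LA gave 0.80 (SE 0.16, adjusted p = 0.0597, limma with Benjamini-Hochberg), which passed with voom (0.0293), on TPM (0.0474), with a block for the replicate number (0.0269) and without control mouse 1 (0.0181) or 2 (0.0224). It did not pass in the 14 other fits tried, such as no filter (0.125). Without LA-treated mouse 1 the adjusted p was 0.239 (limma with Benjamini-Hochberg). The difference of HYA against control was 0.90. *Serpina1d* (ENSMUSG00000071177, chr12:103763594-103773592) was at 1320, 1339 and 1335 FPKM in HYA-treated mice, an SD of 0.781% of their mean, and ranged from 707 to 1041 FPKM in control and from 822 to 1000 FPKM in LA-treated mice. Each HYA-treated mouse was again the higher, and HYA and control differed by 0.61. HYA against LA gave 0.57 (SE 0.12, adjusted p = 0.0649), which passed with voom (0.0370), in a fit of only those 2 groups (0.0438), with the block (0.0296), and without control mouse 1 (0.0165) or 2 (0.0253), by limma with Benjamini-Hochberg. In the 14 other fits tried it did not pass, with up to 0.252 without LA-treated mouse 1 (limma with Benjamini-Hochberg). *Serpina1b* (ENSMUSG00000071178, chr12:103728156-103830373) had the smallest difference, from 1870 to 1942 FPKM in HYA-treated mice against 1350 to 1611 in control and 1427 to 1641 in LA-treated mice (0.31 against LA, SE 0.08, adjusted p = 0.0828, limma with Benjamini-Hochberg, and 0.36 against control). On TPM these differences of *Serpina1b* were smaller, 0.195 against LA and 0.229 against control. *Serpina1a* (ENSMUSG00000066366, chr12:103853589-103863562) ranged from 639 to 696 FPKM in HYA-treated mice, from 399 to 546 in control and from 467 to 555 in LA-treated mice. The difference was 0.43 against LA (SE 0.11, adjusted p = 0.0907, limma with Benjamini-Hochberg) and 0.47 against control. In HYA against LA, without control mouse 1, the adjusted p was 0.0258 for *Serpina1a* and 0.0375 for *Serpina1b*, against 0.0907 and 0.0828 with all mice (limma with Benjamini-Hochberg). Neither gene passed in the 18 other fits tried.

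Since fragments may be divided among near-identical copies, the 5 *Serpina1* genes were also summed. The sum was 10292, 10577 and 11612 FPKM in ND-fed mice, 3020, 4077 and 3693 FPKM in control mice, 5176, 5315 and 5358 FPKM in HYA-treated mice and 3477, 3983 and 3652 FPKM in LA-treated mice. The HYA-treated mice lay close together, above the other high-fat-diet mice and below the ND-fed mice. The sum took 1.72% ± 0.0832 of all fragments on genes in ND-fed mice, 0.715% ± 0.0753 in control, 0.952% ± 0.00396 with HYA and 0.732% ± 0.0466 with LA (SD, n = 3). The sum of HYA-treated mice was 1.43 times that of LA-treated mice and 1.48 times that of control mice (for HYA against LA, exact two-sided permutation p = 0.1, the smallest that 3 against 3 mice allow, and 0.15 after Benjamini-Hochberg over 3 comparisons). The sum of LA-treated mice was 1.04 times that of control mice.

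The composition of the sum, which does not depend on library scaling, varied as well. *Serpina1e* made up 28.1%, 27.0% and 30.8% of the *Serpina1* fragments in ND-fed mice and 0.633%, 0.462% and 1.00% in control mice. Its share was 1.02%, 1.53% and 1.75% in HYA-treated mice and 0.571%, 0.638% and 0.425% in LA-treated mice. With 123634 to 355215 *Serpina1* fragments per mouse, exact binomial 95% intervals, which cover counting error only, were narrow (0.977% to 1.07% for HYA-treated mouse 1 and 0.952% to 1.06% for control mouse 3, which overlap). The share of HYA-treated mice exceeded that of LA-treated mice by 0.892 percentage points and that of control mice by 0.738 points (for HYA against LA, exact two-sided permutation p = 0.1, the smallest possible, and 0.15 after Benjamini-Hochberg over 3 comparisons). Taken on FPKM, the share was 1.154% in HYA-treated mouse 1 and 1.165% in control mouse 3, so that HYA-treated and control mice overlapped on that scale. Since the shares add up to a whole, a fall in that of *Serpina1e* raises those of other genes. *Serpina1b* took 28.7% ± 0.626 of the fragments in ND-fed, 54.0% ± 2.57 in control, 48.2% ± 1.28 with HYA and 53.7% ± 2.82 with LA (SD, n = 3). In the same order, *Serpina1a* averaged 10.6%, 13.2%, 12.8% and 13.1%, and *Serpina1d* 13.9%, 18.1%, 19.4% and 18.0%. *Serpina1c* averaged 18.2%, 14.0%, 18.2% and 14.6%. Without *Serpina1e* the sum was 7553 ± 309 FPKM in ND-fed, 3568 ± 534 in control, 5197 ± 72.0 with HYA and 3680 ± 253 FPKM with LA, so that the HYA-treated mice stood between the ND-fed mice and the others without it as well.

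**Figure D3:**
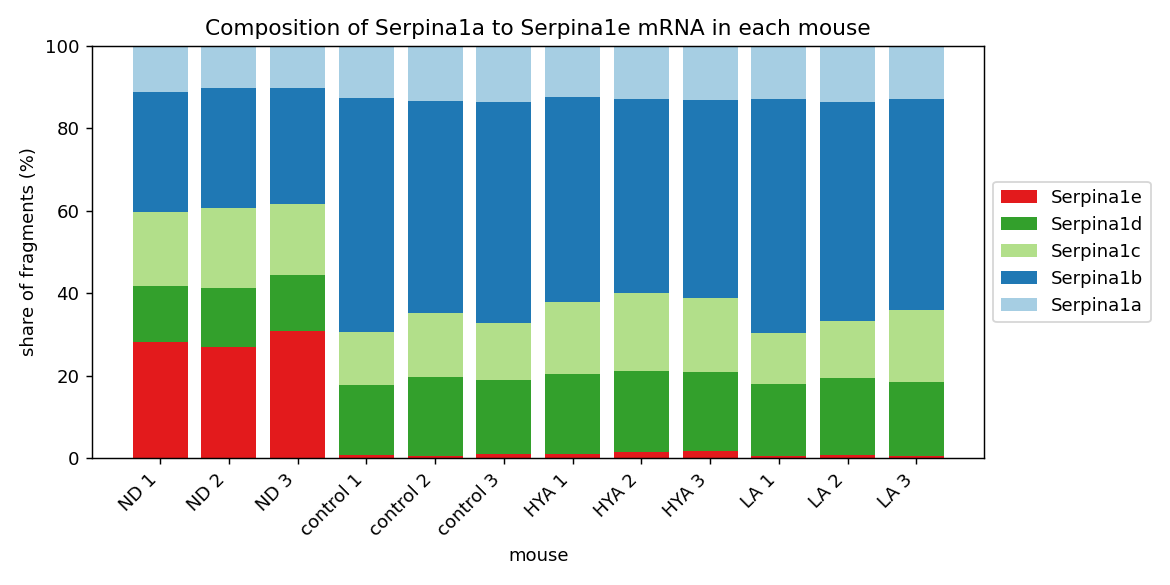
Share (%) of each *Serpina1* gene in the summed fragments of *Serpina1a* to *Serpina1e*, with 1 bar per mouse. *Serpina1e* took 27.0% to 30.8% in ND-fed mice and 0.425% to 1.75% in the other mice.

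*Serpina3k* (ENSMUSG00000058207, chr12:104338486-104346144) encodes contrapsin, an inhibitor of trypsin-like proteases. It was measured at 3445, 3818 and 4196 FPKM in ND-fed mice, 897, 1221 and 1419 FPKM in control mice, 2394, 2046 and 2294 FPKM in HYA-treated mice and 1294, 1268 and 1181 FPKM in LA-treated mice. The HYA-treated mice stood between the ND-fed mice and the other mice on a high-fat diet, with no overlap on either side, and their mean was 58.8% of the ND mean, against 30.9% in control and 32.7% in LA-treated mice. The log2 difference was 0.84 against LA (SE 0.14, adjusted p = 0.0380, limma with Benjamini-Hochberg) and 0.95 against control. For HYA against LA it kept an adjusted p below 0.05 (limma with Benjamini-Hochberg) in each fit without 1 control mouse and lost it in each fit without 1 of the other mice, where it ranged from 0.0538 to 0.183, and with no filter (0.112).

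*Serpina4-ps1* (ENSMUSG00000092075, chr12:104080649-104086724) is annotated as an unprocessed pseudogene. Its transcript was at 206, 136 and 72.5 FPKM in ND-fed mice, 1.16, 3.06 and 4.43 FPKM in control mice, 12.9, 11.6 and 25.5 FPKM in HYA-treated mice and 2.95, 3.75 and 2.30 FPKM in LA-treated mice. Although the mice of a group differed up to several-fold, the HYA-treated mice were above the 6 other mice on a high-fat diet. The fewest fragments in any mouse were 32. HYA against LA gave a log2 difference of 2.08 (SE 0.42, adjusted p = 0.0618, limma with Benjamini-Hochberg). The difference of HYA against control was 2.20. Both values depend on the 1 FPKM added before the log2. With 0.1 FPKM added they were 2.37 against LA and 2.59 against control. HYA against LA was called in a fit of only those 2 groups (0.0457) and without control mouse 1 (adjusted p = 0.0291, limma with Benjamini-Hochberg) or 2 (0.0443). It was not called in the 16 other fits tried. Among these, the adjusted p was 0.107 by voom and 0.239 without LA-treated mouse 1 (limma with Benjamini-Hochberg).

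*Serpina7* (ENSMUSG00000031271, chrX:139079257-139085236), thyroxine-binding globulin, was at 23.1, 21.6 and 24.3 FPKM in ND-fed mice, 84.3, 72.6 and 89.4 FPKM in control mice, 88.0, 75.6 and 74.5 FPKM in HYA-treated mice and 103, 88.2 and 95.7 FPKM in LA-treated mice. It was the 1 gene of the 10 that was higher in each of the 9 mice on a high-fat diet than in each ND-fed mouse. Each LA-treated mouse was above each HYA-treated mouse by a narrow margin, with a log2 difference of HYA against LA of −0.27 (SE 0.09, adjusted p = 0.175, limma with Benjamini-Hochberg), and the difference of HYA against control was −0.05. *Serpina6* (ENSMUSG00000060807, chr12:103646630-103657212), corticosteroid-binding globulin, ranged from 96.0 to 122 FPKM in ND-fed, 87.1 to 194 in control, 123 to 209 with HYA and 77.8 to 143 FPKM with LA. The 3 high-fat-diet groups overlapped, the SD within a group was 25.7% to 40.1% of the mean, and HYA against LA gave 0.63 (95% interval −0.03 to 1.29, adjusted p = 0.312, limma with Benjamini-Hochberg). This difference lay between 0.40 and 0.85 when any 1 mouse was left out.

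*Serpina12* (ENSMUSG00000041567, chr12:104028769-104044443) encodes vaspin, an inhibitor described as an adipokine. It was at 9.61 to 13.5 FPKM in ND-fed, 12.8 to 19.99 in control, 11.8 to 18.5 with HYA and 17.5 to 23.7 FPKM with LA. The groups on a high-fat diet overlapped, and the log2 difference of HYA against LA was −0.39 (95% interval −0.83 to 0.04, adjusted p = 0.334, limma with Benjamini-Hochberg). With any 1 mouse left out it lay between −0.52 and −0.22.

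Among the 19 other Serpina genes of the table, 6 averaged 1 FPKM or more and were tested, and 0 of 6 passed in HYA against LA, HYA against control or LA against control (limma with Benjamini-Hochberg, with unadjusted p below 0.05 for 1, 1 and 0 of them). Of all 11083 genes tested, 54, 310 and 0 passed in the same order (limma with Benjamini-Hochberg). For 1908, 2055 and 294 genes the unadjusted p was below 0.05 (limma). *Serpina11*, which lies next to *Serpina1e*, averaged 16.5, 10.2, 12.6 and 9.52 FPKM in the ND, control, HYA and LA groups, and the HYA-treated mice did not overlap with the control or the LA-treated mice (HYA against LA 0.38, SE 0.12, adjusted p = 0.138, limma with Benjamini-Hochberg). *Serpina10*, the inhibitor that acts with protein Z, was at 41.8, 45.04, 43.3 and 42.9 FPKM in the same order of groups. *Serpina3n*, an acute phase inhibitor, was at 135, 184, 178 and 185 FPKM, and *Serpina3m*, which starts at the same position as *Serpina3k*, at 136, 147, 162 and 150 FPKM. *Serpina3g* and *Serpina3f* had means of 8.04 and 2.92 FPKM over the 12 mice. Of the 13 genes below 1 FPKM, *Serpina1f* and *Serpina16* had no fragment in any mouse. *Serpina9*, chosen after its values were seen because it follows *Serpina11* on that side of *Serpina1e*, had 44, 34 and 54 fragments in ND-fed mice, 0 in each control mouse, 1 in each HYA-treated mouse and 0, 2 and 2 in LA-treated mice. Its ND mean of 0.694 FPKM was at least 17.6-fold higher than the level of 3 fragments in a control mouse.

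The differences were also read in the order of the genes along chromosome 12. The difference of HYA against LA was 0.01 for *Serpina10* and 0.63 for *Serpina6*, the first in this order. From *Serpina1b* through *Serpina1d*, *Serpina1a* and *Serpina1c* to *Serpina1e*, the log2 difference of HYA against LA was 0.31, 0.57, 0.43, 0.80 and 1.81. It was 0.38 for *Serpina11*, −0.39 for *Serpina12*, 2.08 for *Serpina4-ps1*, 0.04 for *Serpina3f*, −0.22 for *Serpina3g*, 0.84 for *Serpina3k*, 0.11 for *Serpina3m* and −0.05 for *Serpina3n*. The 95% intervals of the 3 values below 0 included 0.

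**Figure D4:**
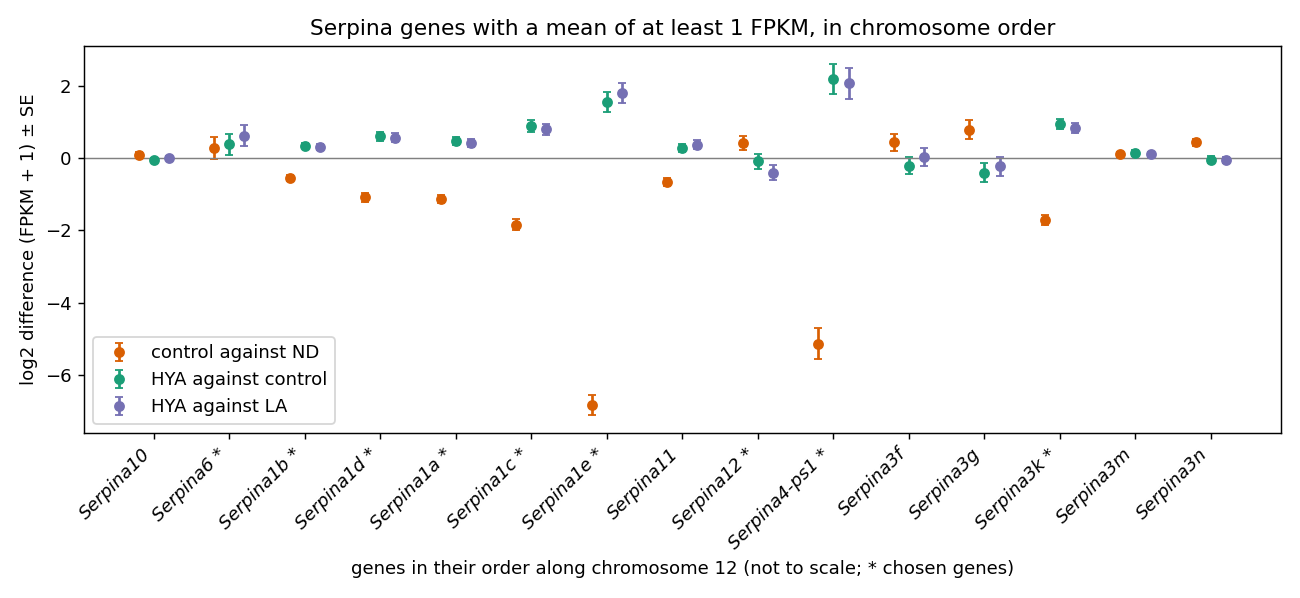
Log2 differences ± SE on the scale of FPKM + 1 for the 15 Serpina genes of chromosome 12 that averaged 1 FPKM or more, in their order along the chromosome and not to scale, for control against ND-fed, HYA-treated against control and HYA-treated against LA-treated mice (3 mice per group). *Serpina1e* and *Serpina4-ps1*, which are separated by *Serpina11* and *Serpina12*, have the widest spread between the comparisons.

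For the 7 genes whose group means spanned more than 1 on the log2 scale, the genes of the table with the most similar values were listed, as the mean absolute difference of centred log2 values over the 12 mice, which the contrast in view dominates. For *Serpina1e* they were *Hsd3b5* (0.73), a steroid-metabolizing enzyme of male mouse liver, *Mup1* (1.08), a major urinary protein, and *Cyp2c54* (1.16), a cytochrome P450. For *Serpina4-ps1* they were *Cyp2c54* (0.48), *Mup1* (0.58) and *Mup11* (0.64). For *Serpina1c* they were *Keg1* (0.14), *Rdh16f2* (0.14) and *Hal* (0.14), the last of which encodes histidine ammonia-lyase, and for *Serpina3k* *Cyp4f14* (0.12), *Mug1* (0.15), a plasma protease inhibitor of another family, and *Scnn1a* (0.17). For *Serpina1a* they were *Gpld1* (0.06), *Ces1c* (0.06) and *Slc22a30* (0.07), and for *Serpina1d* *Gpld1* (0.07) and *Pecr* (0.07). For *Serpina7* they were *Elovl5* (0.12), a fatty acid elongase, *Cd36* (0.14), a fatty acid transporter, and *Abcd2* (0.15), a peroxisomal transporter.

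**Figure D5:**
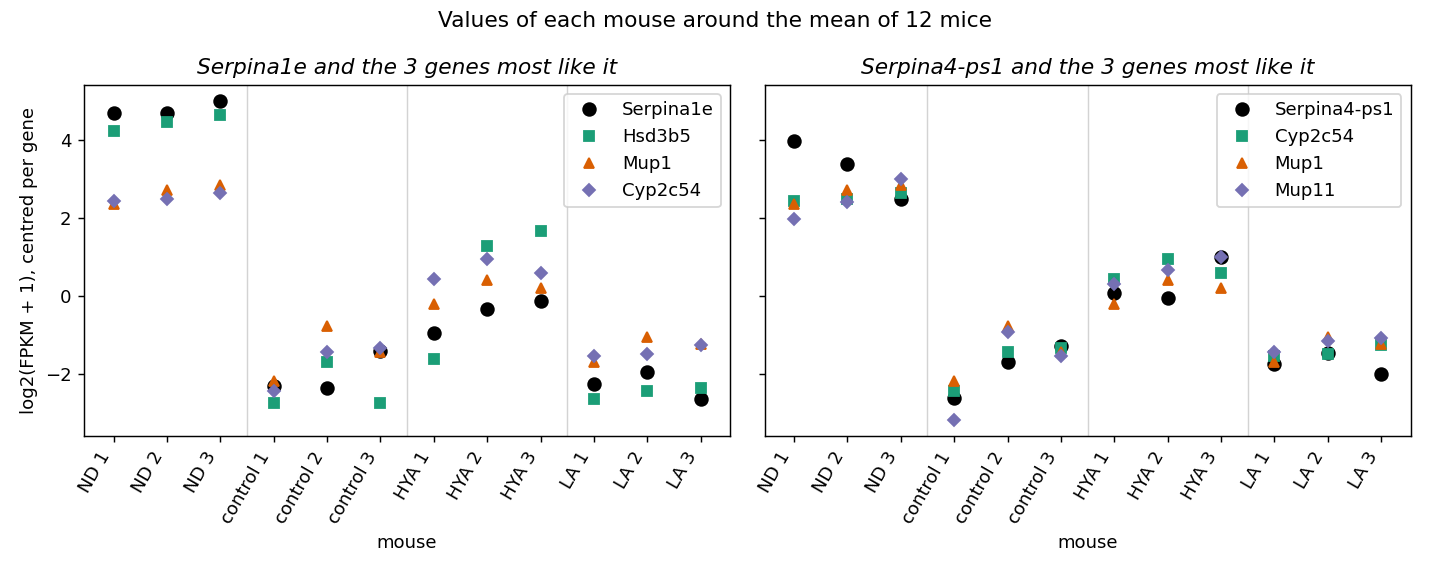
Centred log2(FPKM + 1) of *Serpina1e* and *Serpina4-ps1* in each mouse, each with the 3 genes outside the family whose values were most similar over the 12 mice. *Hsd3b5* was the most similar to *Serpina1e* (mean absolute difference 0.73) and *Cyp2c54* to *Serpina4-ps1* (0.48), and in each panel the ND-fed mice were highest.

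Other lists of liver genes, chosen with earlier results known, were then counted, each by adjusted p alone (limma with Benjamini-Hochberg over 11083 genes). Over all genes tested, 0.235% were higher and 0.253% lower by this rule in HYA against LA, 1.57% and 1.23% in HYA against control, and 0% in LA against control, which holds beside each count below. In HYA against LA, 0 genes of the table passed with no filter (unadjusted p below 0.05 for 2911 of 26045 genes), without HYA-treated mouse 2 (1302 of 11083), or with mouse 1 (1250) or 2 (1700) of the LA group left out, so that the calls of that comparison given below were lost in each of these fits (limma with Benjamini-Hochberg). Those of HYA against control were lost in the fit of only those 2 groups and without HYA-treated mouse 2, as given above. Of 21 tested genes with male-biased expression in mouse liver, 2 rose and 0 fell in HYA against LA (*C8b* and *Susd4*), 9 rose and 0 fell in HYA against control, and 0 passed in LA against control. Their median log2 difference was 0.57 in HYA against LA and 0.77 in HYA against control, where that of all genes was 0.01 and 0.02. The 3 with the largest absolute difference between HYA and LA were *Hsd3b5* (2.92, adjusted p = 0.0720), *Mup7* (2.55, adjusted p = 0.154) and *Slco1a1* (2.01, adjusted p = 0.0620), tested by limma with Benjamini-Hochberg. *Hsd3b5* averaged 0.33 FPKM with LA and 0.48 FPKM in control mice, below the 1 FPKM added before the log2. The size of its difference therefore depends on that added value. The HYA-treated mice differed widely in *Hsd3b5*, with log2 values of −1.62, 1.28 and 1.67 around its mean over the 12 mice, the first of which lay above the highest control mouse (−1.70) by a narrow margin. Of 10 tested genes with female-biased expression (median −0.08 in HYA against LA), 2 fell and 0 rose in HYA against LA, *Cyp2b13* (−1.38, SE 0.20, adjusted p = 0.0317, limma with Benjamini-Hochberg) and *Cyp2b9* (−1.30, SE 0.19, adjusted p = 0.0317). Both also fell in HYA against control (−0.91 and −1.04), and *Cyp2a4* was at −0.95 in HYA against LA (adjusted p = 0.366, limma with Benjamini-Hochberg). Of 14 genes of the growth hormone and STAT5 axis (median 0.12 in HYA against LA), 1 rose in HYA against LA and in HYA against control, *Igfals*, which encodes the subunit that stabilizes circulating IGF1 (0.58, SE 0.10, adjusted p = 0.0365 against LA and 0.0205 against control, limma with Benjamini-Hochberg). *Igfbp2* (0.95, adjusted p = 0.103) and *Socs2* (0.77, adjusted p = 0.0703), an inhibitor of growth hormone signalling, did not pass in HYA against LA (limma with Benjamini-Hochberg).

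Of 15 tested hepatocyte transcription factors, 0 passed in any of the 3 comparisons among high-fat diets (limma with Benjamini-Hochberg), and their median was 0.06 in HYA against LA. *Onecut1*, also named HNF6, had the largest difference, from 2.72 FPKM in LA-treated to 8.18 FPKM in HYA-treated mice (1.28, SE 0.40, adjusted p = 0.131, limma with Benjamini-Hochberg), followed by *Ppara* (0.29) and *Cebpb* (0.25). Of 23 acute phase genes 0 passed in any of the 3, with a median of −0.05 in HYA against LA, and the largest differences were those of *Hamp* (1.25, SE 0.46), which encodes the iron hormone hepcidin, *Orm3* (−0.86, SE 0.23) and *Saa3* (0.78, SE 0.25). Of 29 genes of the secretory pathway and ER stress 0 passed in any of the 3, with a median of −0.01 in HYA against LA, and *Herpud1* (0.50), *Ddit3* (−0.36) and *Dnajb9* (−0.25) had the largest differences. Counts at an unadjusted p below 0.05 in HYA against LA (limma) were 2 of 15 transcription factors, 6 of 23 acute phase genes and 1 of 29 secretory genes. By the same rule 1908 of the 11083 genes tested were counted (10.2% higher and 7.01% lower).

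Of 16 genes of glucocorticoid and thyroid hormone handling (median 0.23 in HYA against LA), 0 passed in HYA against LA (limma with Benjamini-Hochberg). There, 5 of the 16 and 1908 of the 11083 genes tested had an unadjusted p below 0.05 (limma). In HYA against control 1 of the 16 rose, *Klf9* (0.65, SE 0.13, adjusted p = 0.0357, limma with Benjamini-Hochberg), a transcription factor induced by both hormones. *Pck1* (0.65), *Klf9* (0.58) and *Per1* (0.47) had the largest differences in HYA against LA. Of 13 tested serpins of other clades (median 0.18 in HYA against LA), 0 passed in HYA against LA. An unadjusted p below 0.05 was found for 9 of the 13 and for 1908 of the 11083 genes tested (limma). In HYA against control 1 of the 13 rose, *Serpind1*, which encodes heparin cofactor. The largest differences in HYA against LA, *Serpinb6b* (−0.57) and *Serpinh1* (−0.44), the collagen chaperone, were opposite in sign to that median. Of 15 proteases and related targets of these inhibitors, 5 were tested (median 0.29 in HYA against LA), and 1 rose in HYA against control, *Proc*, which encodes protein C (0.28, SE 0.06, adjusted p = 0.0357, limma with Benjamini-Hochberg). In HYA against LA 0 of the 5 passed, with an unadjusted p below 0.05 for 4 of them and for 1908 of the 11083 genes tested (limma). *Klkb1* (0.36), *Cela1* (0.31) and *Proc* (0.29) had the largest differences in HYA against LA. In LA against control 0 genes of these lists passed.

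Markers of other liver cells were read beside these values. The summed level of 7 markers of stellate cells and myofibroblasts, with *Dcn* the most abundant, was 36.3, 32.5 and 42.3 FPKM in ND-fed mice, 90.4, 69.5 and 88.7 FPKM in control mice, 68.9, 56.7 and 62.9 FPKM in HYA-treated mice and 90.4, 74.8 and 77.7 FPKM in LA-treated mice. The HYA-treated mice were therefore lower than the control and LA-treated mice, opposite to the *Serpina1* genes, and 2 of 7 markers, *Col1a1* and *Col3a1*, fell in HYA against control (adjusted p = 0.0293 and 0.0296, limma with Benjamini-Hochberg). The part of this and of the sums that follow in the results above was not tested. The sums of 7 markers of Kupffer cells and macrophages (134.7 to 217 FPKM, *Cd5l* most abundant) and of 6 markers of the sinusoidal endothelium (49.5 to 71.7 FPKM, *Clec4g* most abundant) had 0 genes past the test in the 3 comparisons (limma with Benjamini-Hochberg). The sum of 5 bile duct markers (*Sox9* most abundant) was 2.87 to 3.69 FPKM in HYA-treated mice, below the control mice (4.18 to 6.97) and the LA-treated mice (4.42 to 7.32), and *Epcam* fell in HYA against control (adjusted p = 0.0357, limma with Benjamini-Hochberg). The sum of 5 markers of pancreatic acinar cells (*Cela1*) was 5.57 to 6.86 FPKM in HYA-treated mice, above the control mice (3.91 to 4.605) and the LA-treated mice (4.37 to 5.53). Over the 12 mice, the sums of 5 markers each were 4.798 to 14.5 FPKM for adipocytes (*Fabp4*), 1.65 to 4.62 FPKM for lymphocytes (*Ptprc*) and 1.48 to 6.41 FPKM for neutrophils (*S100a9*), and for each of these the HYA-treated mice overlapped with the control and the LA-treated mice. *Lep* and *Plin1* of the adipocyte markers, *Mpo* of the neutrophil markers and *Cpb1*, *Amy2a5* and *Pnlip* of the acinar markers were below 0.1 FPKM in every mouse.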

How the data were processed

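Liver RNA of 3 mice per group was sequenced as paired ends. Per the submitters' processing notes, reads were trimmed with fastp, aligned to GRCm38 with HISAT2 2.0.5 and counted with featureCounts 1.5.0-p3, and the handling of fragments that map to several genes and of strand is not given in the sources used here. The authors deposited a table with the FPKM of every gene in each mouse. The paper names TPM, but the columns sum to 342146 to 429286, which differ between mice, and the values were therefore read as FPKM. Multiplied by gene length and library scale, 100% of values were whole fragments within 0.05, and these fragments were used for shares and for voom.

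The 11083 genes that averaged 1 FPKM or more across the 12 mice were fitted in R 4.3.3 with limma 3.58.1 on log2(FPKM + 1) over the 4 groups (empirical Bayes with trend, two-sided). Calls required an adjusted p below 0.05 (Benjamini-Hochberg, per comparison) and an absolute log2 difference above 1. Sums and shares were compared by exact two-sided permutation with scipy 1.17.1, and transcripts were aligned with Biopython 1.88 on GENCODE M21, with which the coordinates of 98.33% of 54409 shared identifiers were identical. Genes were named from among the 29 Serpina genes of the table, the 3 genes of each list with the largest absolute difference in HYA against LA, list genes past the test, the 3 genes most similar to each of 7 of the 10 genes (those whose group means spanned more than 1 on the log2 scale), the most abundant marker of each cell type, and markers below 0.1 FPKM in every mouse, and not all of these are reported here. The alternatives tried were a pseudocount of 0.1, no filter, TPM, median-ratio size factors, a block for the replicate number, a fit of only the 2 groups compared, voom, adjusted p alone and leaving out each mouse in turn. The 10 genes and the lists were chosen with earlier results of these data known.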

Additional observations from a re-analysis of the deposited data

How the results depend on the processing

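The number of *Serpina* genes called in HYA against LA was 1, and it was 2 by adjusted p alone, 2 in a fit of only those 2 groups, 0 with no filter, and 0 to 2 when 1 mouse was left out. In HYA against control it was 2, and it was 6 by adjusted p alone, 1 with voom, 0 with no filter, 0 in a fit of only those 2 groups and 0 to 3 when 1 mouse was left out. Over all genes, HYA against LA had 12 calls, and 54 by adjusted p alone, 0 with no filter, 27 on TPM, 29 with the replicate block, 25 in a fit of only those 2 groups, 33 with voom and 0 to 29 when 1 mouse was left out. HYA against control had 34 calls, and 310 by adjusted p alone, 11 with no filter, 0 in a fit of only those 2 groups, 63 with voom and 0 to 68 when 1 mouse was left out. LA against control had 0 calls throughout. The median of the 10 genes in control against ND-fed mice was −1.109, it was −0.873 on TPM, and it lay between −1.218 and −0.967 when 1 mouse was left out.

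Some directions turned. Without control mouse 3, *Serpina7* (0.01579, range −0.1319 to 0.01579) and *Serpina12* (0.04877) turned in HYA against control and *Serpina1e* (0.06124, range −0.4215 to 0.06124) in LA against control. *Serpina12* also turned without HYA-treated mouse 2 (0.08742, range −0.2543 to 0.08742). In LA against control, *Serpina3k* turned without control mouse 1 (−0.07829, range −0.07829 to 0.252), as did the *Serpina1* sum (−0.06939, range −0.06939 to 0.1472), which also turned without LA-treated mouse 2 (−0.002384). Alternatives were run for the 10 genes in HYA against LA and HYA against control, and for *Serpina1e* and *Serpina3k* in LA against control. Of these, 331 kept direction and side of the adjusted p threshold, 64 lost and 18 gained an adjusted p below 0.05 in the same direction, whether or not the difference itself changed, and 5 turned.

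With the replicate number as a block, 1, 2 and 0 of the 10 genes were called in HYA against LA, HYA against control and LA against control. Deviations from the group means of mice with the same number correlated at −0.396 to 0.294. For mice with different numbers the range was −0.375 to 0.393. Whether the numbers pair the mice cannot be told from 3 mice per group. With 3 mice per group the smallest exact p is 0.1. The calls depended on the mice included and on the choice of genes tested. Values of *Serpina1a* to *Serpina1e* depend on how shared fragments were assigned, which could not be recomputed without reads. A group with 1 mouse left out has 2 mice, whose spread limma pools with that of the other groups. Protein was not measured in the data used here, and mRNA of a whole liver does not show which cells differ.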
